A study of Homo sapiens with 6 samples.

Results

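The genes described are 9 that act at the cell surface and in the matrix around it: the matrix metalloproteases MMP1, MMP7, MMP13, MMP14 and MMP15, the plasminogen activators PLAU and PLAT, the urokinase receptor PLAUR and the metalloprotease inhibitor TIMP1. They were taken by name from the 60676 genes of an RNA-seq experiment on HT29 cells, a human colorectal adenocarcinoma line of wild-type genotype, and all 9 were found in the tables. The 3 groups of 2 libraries were untreated cells in control medium, cells in histidine-depleted medium and cells in tryptophan-depleted medium, each kept in its medium for 48 h. No transgene or drug is given for any group. Whether the 2 libraries of a group came from separate cultures is not stated, so every p-value measures only the spread between these libraries, which may be technical. The study's methods give an RPMI base for the histidine-free medium and a DMEM F-12 base for the tryptophan-free medium, so base medium and depletion cannot be told apart. Both depleted media were given dialyzed serum. The serum of the control medium of these libraries is not stated, so a difference in serum cannot be told apart from depletion either.

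Metalloproteases of this family cut collagens, laminin, surface receptors and other proteases, and most of them are made as inactive precursors. The secreted members diffuse into the matrix, the membrane-type members stay on the plasma membrane, and TIMP1 blocks many of the active forms by binding their catalytic cleft. In the linked serine protease cascade, urokinase (PLAU) bound to its receptor PLAUR, or tissue-type activator (PLAT), converts plasminogen to plasmin, which cuts fibrin and can activate metalloprotease precursors. In colon tumours MMP7 is known as a product of the tumour epithelium itself, whereas stromal cells make much of the collagenase.

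The libraries held 46390819 to 64388876 reads on genes, and protein-coding genes took 96.9% to 97.5% of them. Of 10 colon epithelial markers, all were above the filter on low counts in both comparisons with untreated cells, and their summed level was 1724 to 1768 RPKM (reads scaled to exon length and to the library's total) in untreated, 1897 to 1971 in histidine-depleted and 2525 to 2549 in tryptophan-depleted cells. The members did not move together: after histidine depletion 4 of the 10 rose, the keratins KRT8 and KRT20 among them, and 6 fell, the keratin KRT18 among them (median log2 fold change -0.32), and after tryptophan depletion 6 rose, 2 fell and 2 did not pass (median 0.38). Among all genes tested, 39.1% were higher and 38.2% lower after histidine depletion, and 36.1% were higher and 34.8% lower after tryptophan depletion. In untreated, histidine-depleted and tryptophan-depleted cells, CEACAM5 had scaled counts of 497 and 540, 66.9 and 105, and 7952 and 7856, and the intestinal factor CDX2 had 469 and 457, 182 and 172, and 423 and 365. CDX1 had 21.9 and 18.9 in untreated and 5.34 and 2.75 in tryptophan-depleted cells and was at 0 in both histidine-depleted libraries. It reached the filter only through the untreated libraries, so its place among the markers that fell after histidine depletion is tied to the filter. Fibroblast markers summed to at most 0.190 on that scale in any library, with COL1A2 and PDGFRA at 0 reads throughout and 6 of the 10 at no more than 3 reads in any library. COL1A1, the one fibroblast marker tested, had scaled counts of 66.7 and 69.6 in untreated, 27.1 and 35.6 in histidine-depleted and 51.2 and 61.3 in tryptophan-depleted cells, and fell after histidine depletion (log2 fold change -1.10, limma adjusted p = 0.000168). FAP had 0 and 2.98 in untreated, 13.6 and 14.2 in histidine-depleted and 0 in both tryptophan-depleted libraries. Of 8 leukocyte markers, PTPRC, CD68 and CD3E reached at most 3 reads, and the list's sum, 743 to 772 in untreated, 125 to 145 in histidine-depleted and 410 to 412 in tryptophan-depleted cells, was carried by LYZ, a lysozyme that Paneth cells of the gut also make. The other 4 had scaled counts that differed between groups or stayed low: CD14 had 104 and 119 in untreated, 50.6 and 63.1 in histidine-depleted and 380 and 367 in tryptophan-depleted cells, ITGAM averaged 70.5 normalized counts in untreated against 99.6 in histidine-depleted and 69.9 against 7.48 in tryptophan-depleted cells, CSF1R had scaled counts of 6.56 and 5.97, 35.2 and 41.7, and 6.40 and 9.16, and CD79A ranged from 52.4 to 80.0. Of 5 endothelial markers, which summed to 0.101 to 0.587 RPKM, CDH5 and KDR were at 3 reads or fewer. TEK had 91.8 and 84.5 scaled counts in untreated, 9.94 and 3.05 in histidine-depleted and 137 and 135 in tryptophan-depleted cells, PECAM1 had 48.1 and 36.8, 8.13 and 9.16, and 20.3 and 18.3, and VWF had 7.65 and 3.98, 42.5 and 40.7, and 8.54 and 8.24. Whether the movement of these markers has a part in the results was not tested. In bulk RNA, fewer cells of a kind and less RNA per cell cannot be told apart.

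The upstream sequence of the genes that were higher after histidine depletion is shown first, since these genes share a direction. RefSeq windows on GRCh38.p14, running from 250 bases before to 50 bases after a start site, were found for MMP7, MMP14, MMP15, PLAUR and TIMP1 and, at 2 start sites, for PLAU, which makes 7 windows for 6 of the 9 genes. MMP1, MMP13 and PLAT had no entry. The letters searched on both strands were TGANTCA, the AP-1 (FOS and JUN) recognition sequence, AGGAAG, a core sequence of ETS factors, and TATAAA, a core promoter element. None of the matches to different motifs overlapped each other. Bases that gencode places in an exon of the same gene are left off the stretches for MMP7, PLAU and TIMP1, and for PLAUR, whose window lies inside a longer annotated first exon, the 27 bases around the AP-1 letters are given. Each is written 5′ to 3′ on the gene's strand, and capitals mark matches to the AP-1 letters or, on either strand, to the ETS letters.
MMP7, chr11:102530751-102530997, minus strand: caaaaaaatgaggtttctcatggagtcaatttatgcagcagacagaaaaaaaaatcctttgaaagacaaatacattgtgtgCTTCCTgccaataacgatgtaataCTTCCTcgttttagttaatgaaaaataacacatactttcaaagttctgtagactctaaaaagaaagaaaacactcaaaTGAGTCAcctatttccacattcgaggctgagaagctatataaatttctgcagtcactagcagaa
PLAU (downstream start site), chr10:73910882-73911103, plus strand: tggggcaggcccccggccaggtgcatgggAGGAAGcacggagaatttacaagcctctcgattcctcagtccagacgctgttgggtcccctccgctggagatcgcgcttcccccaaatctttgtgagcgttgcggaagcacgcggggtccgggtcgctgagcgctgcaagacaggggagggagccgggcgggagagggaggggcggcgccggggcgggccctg
PLAUR, chr19:43670339-43670365, minus strand: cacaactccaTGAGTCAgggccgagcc
TIMP1, chrX:47582186-47582407, plus strand: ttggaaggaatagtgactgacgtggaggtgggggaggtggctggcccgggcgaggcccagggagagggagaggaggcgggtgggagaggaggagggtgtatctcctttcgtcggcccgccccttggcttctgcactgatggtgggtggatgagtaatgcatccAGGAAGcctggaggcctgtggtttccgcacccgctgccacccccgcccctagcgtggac

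The AP-1 letters stood in 2 of the 7 windows, in MMP7 from base -67 to -61 and in PLAUR from base -186 to -180 before the start site, and in 7.71% of all 35116 windows. The ETS letters stood in 4 of the 7 windows, those of MMP7 (at 2 places), PLAUR, TIMP1 and the downstream start site of PLAU, and in 33.6% of all windows. The window of the upstream start site of PLAU held none of the 3 motifs. TATAAA stood in 1 of the 7, that of MMP7, from base -30 to -25, and in 11.5% of all windows. The windows of MMP14 and MMP15, the 2 genes that were lower after histidine depletion, held none of the 3 motifs. A match describes letters in this window and says nothing of binding, and no match says only that these letters are not there.

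Counts are given below as scaled counts, reads divided by size factors computed over all 6 libraries together, in the order untreated 1 and 2, histidine-depleted 1 and 2, tryptophan-depleted 1 and 2. Tests against untreated cells used limma on log2(normalized count + 1) within each deposited table, where a gene's mean reached 10, and log2 fold changes are on that scale, which understates the change of low genes. Adjusted p-values are Benjamini-Hochberg over all genes tested, with a threshold of 0.05. Both depletions were compared with the same 2 untreated libraries.

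After histidine depletion, MMP7, PLAU, TIMP1 and PLAUR rose and MMP14 and MMP15 fell. Of the 9 genes, 8 were tested, of which 4 rose, 2 fell and 2 did not pass, while PLAT had too few reads. Among all 18288 genes tested, 77.3% passed, 39.1% as higher and 38.2% as lower, so the share of the 9 genes that passed is near that of genes at large. The median log2 fold change of the 8 was 0.26 against 0.010 over all genes, and the median size regardless of sign was 0.77 against 0.67. With a log2 fold change of at least 1 in size also required, 3 of the 8 passed, where 32.5% of all genes did. After tryptophan depletion all 9 were tested, and PLAUR, MMP13 and PLAU rose, MMP14 and MMP15 fell and 4 did not pass. There, 70.8% of 17960 genes passed, 36.1% as higher and 34.8% as lower. The median log2 fold change of the 9 was 0.037 against 0.013 over all genes, and the median size was 0.26 against 0.45. With a log2 fold change of at least 1 in size also required, none of the 9 passed (5 without it), where 20.5% of all genes did.

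MMP7 (matrilysin, ENSG00000137673, GRCh38 chr11:102520508-102530750) is a small secreted protease that lacks the hemopexin domain and cuts many non-collagen matrix proteins and E-cadherin. Its scaled counts were 3913 and 4156 in untreated, 15121 and 15054 in histidine-depleted and 4388 and 4292 in tryptophan-depleted cells. Both histidine-depleted libraries stood far above the other four, which lay close together, although the tryptophan-depleted pair did not overlap the untreated pair. MMP7 rose 3.76-fold after histidine depletion (log2 fold change 1.91 ± 0.0505 (SE), limma adjusted p = 2.27e-20). After tryptophan depletion its log2 fold change was 0.098 ± 0.048 (SE; 95% interval 0.0035 to 0.19) and did not pass (limma adjusted p = 0.0589). That call depended on the setting: 6 of 15 alternatives put it past the threshold, with limma adjusted p = 0.000903 without untreated replicate 2 and edgeR adjusted p = 0.0188.

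MMP1 and MMP13 are collagenases, which open the triple helix of fibrillar collagen, and both were near the limit of detection. MMP1 (ENSG00000196611, chr11:102789401-102798160) had 12 and 12 reads in untreated, 18 and 11 in histidine-depleted and 10 and 11 in tryptophan-depleted cells. The untreated and histidine-depleted libraries overlapped, and the tryptophan-depleted libraries were slightly below the untreated ones. MMP1 did not pass after histidine depletion (log2 fold change 0.11, 95% interval -0.71 to 0.93, limma adjusted p = 0.808), where the sign turned with quantile normalization and without histidine-depleted replicate 1. It did not pass after tryptophan depletion either (-0.26, interval -1.13 to 0.62, limma adjusted p = 0.614). WTAPP1, a pseudogene on the opposite strand that covers 8.14% of the exonic bases of MMP1, had 0 to 12 reads per library.

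MMP13 (ENSG00000137745, chr11:102942995-102955732) had scaled counts of 16.4 and 18.9 in untreated, 14.5 and 17.3 in histidine-depleted and 28.8 and 43.0 in tryptophan-depleted cells. Both tryptophan-depleted libraries were above the rest, and they differed from each other by more than either other pair. MMP13 rose 2.03-fold after tryptophan depletion (log2 fold change 0.95 ± 0.316 (SE), limma adjusted p = 0.00503). The call rested on 27 and 47 reads against 15 and 19, and it was lost without tryptophan-depleted replicate 2 (log2 fold change 0.67, limma adjusted p = 0.178) and with DESeq2 (adjusted p = 0.0861). After histidine depletion it did not pass (-0.14, interval -0.87 to 0.59, limma adjusted p = 0.734).

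MMP14 and MMP15 encode membrane-type metalloproteases (MT1-MMP and MT2-MMP) that cut matrix at the cell surface and activate the precursor of MMP2. MMP14 (ENSG00000157227, chr14:22836560-22849041) had scaled counts of 515 and 529 in untreated, 159 and 187 in histidine-depleted and 353 and 393 in tryptophan-depleted cells. The 3 groups did not overlap, with untreated cells highest and histidine-depleted cells lowest. MMP14 fell to 0.334 times the untreated level after histidine depletion (log2 fold change -1.58 ± 0.106 (SE), limma adjusted p = 1.26e-12) and to 0.711 times after tryptophan depletion (-0.49 ± 0.0870, limma adjusted p = 2.07e-07). MMP15 (ENSG00000102996, chr16:58025754-58046901) had scaled counts of 5111 and 5242, 2508 and 2852, and 4348 and 4403 in the same order of groups. It showed the same ranking of the groups with no overlap. It fell to 0.521 times the untreated level after histidine depletion (log2 fold change -0.94 ± 0.0571 (SE), limma adjusted p = 1.74e-13) and to 0.841 times after tryptophan depletion (-0.25 ± 0.0473, limma adjusted p = 1.13e-06).

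PLAU (ENSG00000122861, chr10:73909177-73917496), the urokinase-type activator, had scaled counts of 127 and 125 in untreated, 472 and 427 in histidine-depleted and 163 and 171 in tryptophan-depleted cells. All 3 groups were apart, with the histidine-depleted pair well above the other two. PLAU rose 3.59-fold after histidine depletion (log2 fold change 1.83 ± 0.113 (SE), limma adjusted p = 2.37e-13). It rose 1.32-fold after tryptophan depletion (0.40 ± 0.142 (SE), limma adjusted p = 0.00909), a call that was lost without tryptophan-depleted replicate 2 (limma adjusted p = 0.0777) and with DESeq2 (adjusted p = 0.112). C10orf55, which lies on the opposite strand over 31.0% of the exonic bases of PLAU, had 0 to 4 reads per library.

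PLAT (ENSG00000104368, chr8:42174718-42207709), the tissue-type activator, had 16 and 9 reads in untreated, 2 and 4 in histidine-depleted and 10 and 17 in tryptophan-depleted cells. Both histidine-depleted libraries were below the other four, and the untreated and tryptophan-depleted libraries overlapped. Summed over libraries and scaled, histidine-depleted cells had 0.221 times the untreated level, with a 95% interval of 0.0740 to 0.551 from the exact binomial that covers counting error only. PLAT was below the count filter in that comparison. With no filter it passed as lower (log2 fold change -1.84, limma adjusted p = 0.0234). After tryptophan depletion the log2 fold change was 0.029 (interval -0.81 to 0.87, limma adjusted p = 0.955), and its sign turned with DESeq2 and without untreated or tryptophan-depleted replicate 2.

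PLAUR (ENSG00000011422, chr19:43646095-43670547) encodes the lipid-anchored receptor that holds urokinase at the cell surface. Its scaled counts were 3295 and 3197 in untreated, 4219 and 4294 in histidine-depleted and 5429 and 5581 in tryptophan-depleted cells. The groups did not overlap, and it was the one gene of the 9 with more than 100 scaled counts that was highest after tryptophan depletion. PLAUR rose 1.32-fold after histidine depletion (log2 fold change 0.40 ± 0.0507 (SE), limma adjusted p = 1.34e-07) and 1.69-fold after tryptophan depletion (0.75 ± 0.0478, limma adjusted p = 1.15e-31).

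TIMP1 (ENSG00000102265, chrX:47582408-47586789) encodes a secreted inhibitor of most metalloproteases of this family, with weak activity against several membrane-type ones. Its scaled counts were 5380 and 5528 in untreated, 8078 and 8232 in histidine-depleted and 5711 and 5543 in tryptophan-depleted cells. The histidine-depleted pair stood above the other four. TIMP1 rose after histidine depletion (log2 fold change 0.59 ± 0.0492 (SE), limma adjusted p = 8.24e-11). After tryptophan depletion it did not pass (0.037, interval -0.055 to 0.13, limma adjusted p = 0.481), and its sign turned with quantile normalization.

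The 2 depletions were also compared with each other in 1 fit over the 6 libraries. MMP7 (log2 fold change 1.80 ± 0.0409 (SE), limma adjusted p = 1.73e-16), PLAU (1.42 ± 0.110, limma adjusted p = 2.11e-09) and TIMP1 (0.54 ± 0.0393, limma adjusted p = 9.59e-10) were higher in histidine-depleted cells. PLAUR (-0.37 ± 0.0408, limma adjusted p = 2.30e-07), MMP15 (-0.71 ± 0.0517, limma adjusted p = 8.74e-10), MMP14 (-1.11 ± 0.101, limma adjusted p = 1.92e-08) and MMP13 (-1.11 ± 0.315, limma adjusted p = 0.00425) were lower. Hence 7 of the 8 genes tested differed between the depletions, where 76.7% of all 18264 genes did, 38.7% as higher and 38.0% as lower in histidine-depleted cells. MMP1 did not pass (0.35, interval -0.46 to 1.16, limma adjusted p = 0.412), and PLAT was below the filter (without it, -1.88, limma adjusted p = 0.0151). With a log2 fold change of at least 1 in size also required, 4 passed, where 31.7% of all genes did. The difference in MMP13 was lost without tryptophan-depleted replicate 2 (-0.83, limma adjusted p = 0.0746).

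**Figure D1:**
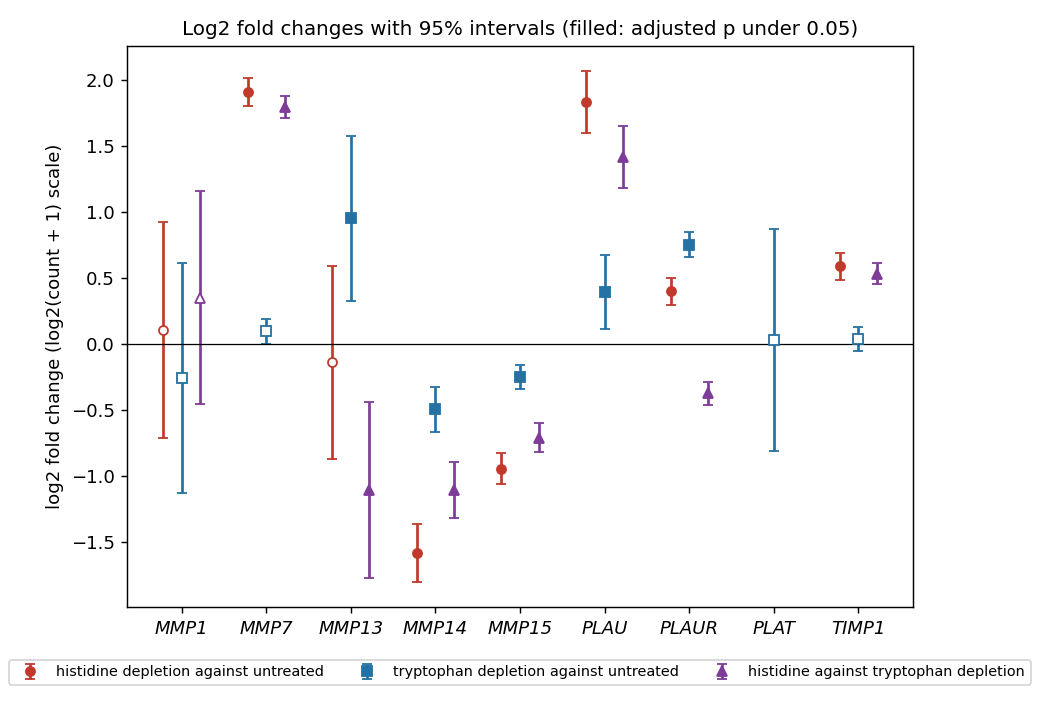
Log2 fold changes (y axis, log2(count + 1) scale) of the 9 genes in the 3 comparisons, with 95% intervals from limma, filled where the adjusted p was under 0.05 and open where it was not. PLAT is shown for tryptophan depletion only, since it was not tested in the others, and PLAUR is the gene with positive values in both depletions and a negative one in the direct comparison.

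Levels can be compared between genes only per length, so levels are given here in RPKM, computed from the recovered reads and exon lengths. The length of a gene is that of all its annotated exons merged over transcripts, which can exceed the length of the transcripts present. In untreated cells TIMP1 was highest at 73.2 ± 0.219 (SD, n = 2), followed by MMP7 at 33.7 ± 0.685, MMP15 at 23.7 ± 0.104 and PLAUR at 14.1 ± 0.618. MMP14 at 2.19 ± 0.00615 and PLAU at 0.830 ± 0.0253 were lower, and MMP13 at 0.121, MMP1 at 0.0889 and PLAT at 0.0332 were lower still. In histidine-depleted cells MMP7 at 111 ± 0.899 stood above TIMP1 at 96.6 ± 0.817, PLAUR at 16.4 ± 0.122 above MMP15 at 10.8 ± 0.931, and PLAU at 2.61 ± 0.195 above MMP14 at 0.641 ± 0.0707. On these merged lengths the order of these 3 pairs was thus the opposite of that in untreated cells, with no overlap within a pair in either group. Which gene of a pair stands higher in a group depends on the lengths used, and other lengths were not tried. In tryptophan-depleted cells TIMP1 at 71.5 ± 1.69 and MMP7 at 34.4 ± 0.622 kept their places, and PLAUR at 22.7 ± 0.387 stood above MMP15 at 19.0 ± 0.120. The neighbours MMP13 and MMP1 overlapped in histidine-depleted cells, and all other neighbours in the order of each group were apart, those of MMP13, MMP1 and PLAT on very few reads.

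For the 6 of the 9 genes with a mean of at least 100 scaled counts in their highest group, which leaves out MMP1, MMP13 and PLAT, the genes with the most similar pattern over the 6 libraries were found as the smallest Euclidean distance between log2(scaled count + 1) centred per gene, among 11415 protein-coding genes with the same minimum. For MMP7 they were UBE2D3 (distance 0.0475), MED27 (0.0645) and C11orf68 (0.0870). For PLAU they were ERRFI1 (0.0987), FNIP1 (0.103) and KCTD5 (0.138), and for PLAUR CLCF1 (0.0313), IRAK4 (0.0710) and TBRG1 (0.0784). Those of TIMP1 were GOLM1 (0.0402), BSDC1 (0.0453) and PSMD13 (0.0479). MMP14 was nearest to MRI1 (0.121), KCTD6 (0.123) and ZMYM3 (0.147), and MMP15 to POLL (0.0655), TMEM187 (0.0901) and SEPTIN10 (0.0952). None of these 6 genes was among the nearest 3 of another of them.

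The lists of related genes that follow are to be read against all genes tested, of which 39.1% were higher and 38.2% lower after histidine depletion and 36.1% were higher and 34.8% lower after tryptophan depletion, with medians of 0.010 and 0.013. Of the 18 other metalloproteases of the family, most had hardly any reads. MMP8, MMP9, MMP16, MMP17 and MMP27 had 0 reads in all 6 libraries, which allows up to 0.0466 to 0.0647 RPM in a library (3 reads against its total, counting error only), and MMP3, MMP12 and MMP26 had at most 3. After histidine depletion 5 were tested, of which 2 rose, 1 fell and 2 did not pass, with a median log2 fold change of 0.49. The 1 that fell, MMP11 (34.7 ± 4.41 to 3.38 ± 0.949 normalized counts), reached the count filter only through the untreated libraries. MMP25, a lipid-anchored member, rose from 18.7 ± 4.12 to 128 ± 10.4 normalized counts (SD, n = 2; log2 fold change 2.73, limma adjusted p = 1.00e-10), and MMP24, a membrane-type member, from 892 ± 40.1 to 1343 ± 28.8 (0.59, limma adjusted p = 1.26e-08). After tryptophan depletion 5 were tested and 2 rose, 1 fell and 2 did not pass (median -0.24), with MMP25 higher (0.94, limma adjusted p = 0.00480) and MMP24 lower at 586 ± 5.98 against 884 ± 37.5 (-0.59, limma adjusted p = 2.99e-13). MMP24 thus passed in opposite directions, and its direct difference between the depletions was 1.17 (limma adjusted p = 8.03e-12). MMP28, the other gene that rose after tryptophan depletion (8.80 ± 2.76 to 35.6 ± 1.82 normalized counts), reached the count filter only through the tryptophan-depleted libraries.

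Among the 5 other metalloprotease inhibitors, TIMP2 and TIMP4 had enough counts to be tested. TIMP2, which with MMP14 takes part in activating the MMP2 precursor, rose after histidine depletion (1707 ± 125 to 3580 ± 118 normalized counts, log2 fold change 1.07, limma adjusted p = 2.20e-14) and after tryptophan depletion (1692 ± 120 to 2909 ± 108, 0.78, limma adjusted p = 2.42e-29). TIMP4 rose after tryptophan depletion from 160 ± 14.7 to 947 ± 27.2 (2.56, limma adjusted p = 2.31e-57) and did not pass after histidine depletion (-0.27, limma adjusted p = 0.0826). Its direct difference between the depletions was -2.85 (limma adjusted p = 4.43e-14), so TIMP1 was higher in histidine-depleted cells and TIMP4 in tryptophan-depleted cells.

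The inhibitors of plasminogen activators and plasmin numbered 7, of which 5 were tested. SERPINE2 (protease nexin-1) fell after histidine depletion (log2 fold change -0.54, limma adjusted p = 3.82e-08) and rose after tryptophan depletion (0.67, limma adjusted p = 1.60e-23), and SERPINA5 (protein C inhibitor) did likewise (-1.61 and 0.43, limma adjusted p = 1.63e-10 and 0.000106). In all, 1 rose, 3 fell and 1 did not pass after histidine depletion (median -0.54), and 3 rose and 2 fell after tryptophan depletion (median 0.43).

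Of plasminogen and its receptors (6 genes), 5 were tested. ANXA2 and S100A10 form a surface complex that binds plasminogen: ANXA2 rose after histidine depletion (log2 fold change 0.73, limma adjusted p = 5.67e-10) and fell after tryptophan depletion (-0.32, limma adjusted p = 8.84e-07), whereas S100A10 fell after histidine (-0.85, limma adjusted p = 2.91e-13) and tryptophan depletion (31143 ± 987 to 8361 ± 69.6 normalized counts, -1.90, limma adjusted p = 8.31e-75). ENO1, a glycolytic enzyme that also binds plasminogen at the surface, rose after histidine depletion (0.41, limma adjusted p = 8.51e-06) and fell after tryptophan depletion (-0.71, limma adjusted p = 5.07e-21). LRP1, the endocytic receptor that clears urokinase bound to its inhibitor and receptor, fell after histidine depletion from 9416 ± 898 to 2387 ± 298 (-1.98, limma adjusted p = 3.11e-18) and rose after tryptophan depletion from 9334 ± 865 to 19415 ± 826 (1.06, limma adjusted p = 7.11e-45). After histidine depletion 2 rose and 3 fell (median -0.31), and after tryptophan depletion 1 rose, 3 fell and 1 did not pass (median -0.32).

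**Figure D2:**
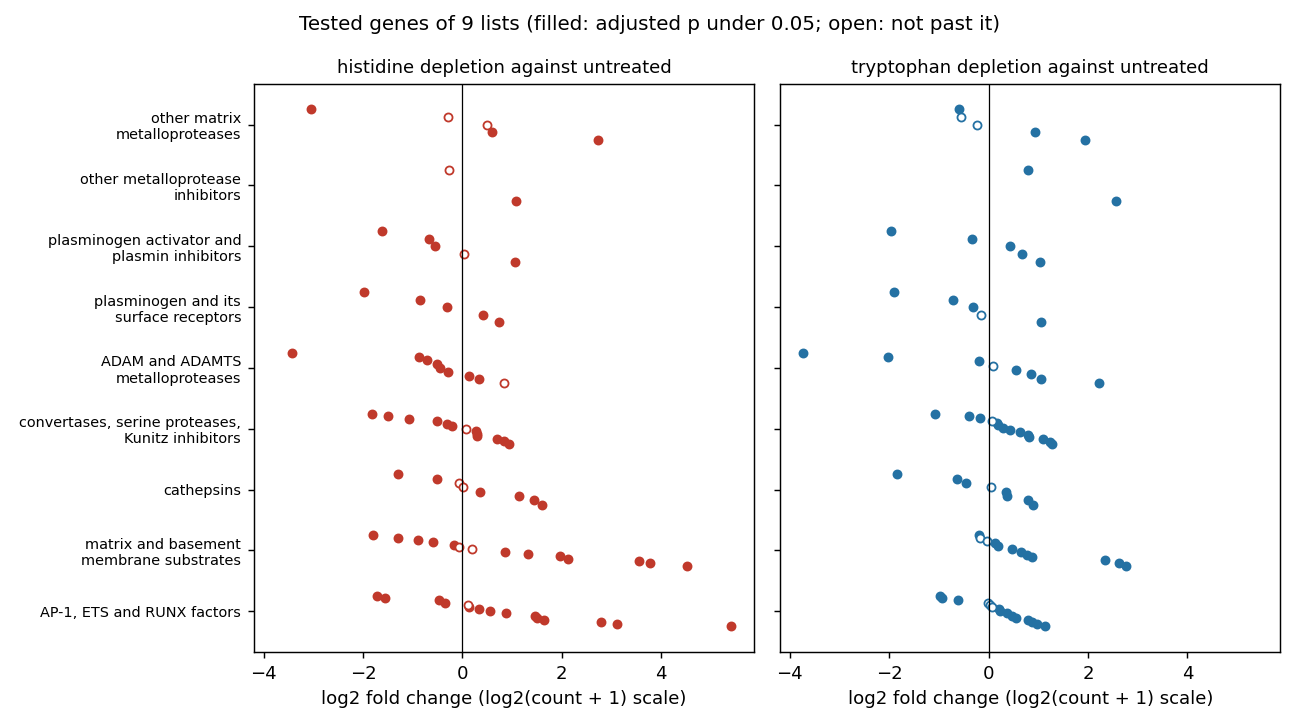
Log2 fold changes (x axis, log2(count + 1) scale) of the tested genes of 9 lists of the pericellular protease network, in histidine depletion (left) and tryptophan depletion (right) against the same untreated libraries, with points ordered by value within a list and filled where the limma adjusted p was under 0.05. Each list has genes on both sides of 0 in at least 1 panel, and the far right points on the left are TNC among the substrates and ETS1 among the factors.

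Of 14 proprotein convertases, pericellular serine proteases and Kunitz inhibitors, 13 were tested after histidine depletion, and 6 rose, 6 fell and 1 did not pass (median 0.065). After tryptophan depletion all 14 were tested, and 10 rose, 3 fell and 1 did not pass (median 0.36), where 36.1% of all genes rose and 34.8% fell. FURIN, a convertase that removes the propeptide of membrane-type metalloproteases, rose after tryptophan depletion from 5940 ± 200 to 14461 ± 60.2 normalized counts (log2 fold change 1.28, limma adjusted p = 2.84e-56) and also rose after histidine depletion (0.95, limma adjusted p = 1.36e-14). KLK6 rose after tryptophan (1.09, limma adjusted p = 6.24e-45) and histidine depletion (0.70, limma adjusted p = 2.53e-11), and KLK10 fell after tryptophan (-1.08, limma adjusted p = 7.00e-47) and rose after histidine depletion (0.30, limma adjusted p = 1.35e-05). After histidine depletion the convertase PCSK6 (-1.82, limma adjusted p = 2.41e-17), the transmembrane protease TMPRSS4 (-1.50, limma adjusted p = 9.31e-17) and KLK11 (-1.08, limma adjusted p = 1.30e-14) fell. All 3 rose after tryptophan depletion, PCSK6 by 0.29 (limma adjusted p = 2.34e-07), TMPRSS4 by 0.62 (limma adjusted p = 1.20e-25) and KLK11 by 0.18 (limma adjusted p = 0.000819).

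Among 15 ADAM and ADAMTS proteases, which shed surface proteins and cut proteoglycans, 9 were tested after histidine depletion, and 2 rose, 6 fell and 1 did not pass (median -0.45). One of those tested, ADAMTS9, reached the count filter only through the histidine-depleted libraries (scaled counts 9.84 and 5.97 in untreated, 17.2 and 12.2 in histidine-depleted cells). After tryptophan depletion 8 were tested, and 4 rose, 3 fell and 1 did not pass (median 0.33). ADAMTS6 fell in both, from 2045 ± 176 to 190 ± 14.0 normalized counts (log2 fold change -3.42, limma adjusted p = 4.69e-21) and from 2027 ± 180 to 154 ± 41.6 (-3.74, limma adjusted p = 4.64e-80). ADAM19 fell after histidine depletion (-0.71, limma adjusted p = 1.10e-10) and rose after tryptophan depletion (1.05, limma adjusted p = 1.21e-44). ADAM15 (-0.50, limma adjusted p = 3.23e-09) and ADAM8 (-0.30, limma adjusted p = 0.00103) fell after histidine depletion, and both rose after tryptophan depletion (0.56, limma adjusted p = 2.20e-22, and 2.22, limma adjusted p = 8.25e-76).

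All 8 cathepsins, proteases of the lysosome that can also act outside the cell, were tested. After histidine depletion 4 rose, 2 fell and 2 did not pass (median 0.18), with CTSL (log2 fold change 1.61, limma adjusted p = 5.23e-14) and CTSK (1.44, limma adjusted p = 9.03e-11) higher and CTSH lower (-1.30, limma adjusted p = 1.06e-16). After tryptophan depletion 4 rose, 3 fell and 1 did not pass (median 0.20), with CTSL (0.89, limma adjusted p = 5.55e-15) and CTSK (0.79, limma adjusted p = 8.80e-08) higher and CTSH (-0.64, limma adjusted p = 6.73e-27) and CTSV lower (-1.85, limma adjusted p = 8.84e-37). After histidine depletion CTSV did not pass (0.014, limma adjusted p = 0.885).

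Of 20 matrix and basement membrane substrates, 14 were tested after histidine depletion, and 7 rose, 5 fell and 2 did not pass (median 0.53). COL12A1 and NID2 reached the count filter there only through the histidine-depleted libraries, so their place among the genes that rose is tied to the filter. COL12A1 had scaled counts of 3.28 and 2.98 in untreated and 44.3 and 49.9 in histidine-depleted cells. NID2 had 4.37 and 4.97 in untreated and 21.7 and 25.4 in histidine-depleted cells. TNC (tenascin-C) rose from 226 ± 32.3 to 5160 ± 184 normalized counts (log2 fold change 4.51, limma adjusted p = 9.90e-24), THBS1 (thrombospondin-1) from 1000 ± 20.1 to 13646 ± 908 (3.77, limma adjusted p = 3.53e-25) and COL7A1, the anchoring fibril collagen, from 48.5 ± 1.28 to 192 ± 0.0172 (1.97, limma adjusted p = 7.76e-11). After tryptophan depletion 12 were tested, and 9 rose, 1 fell and 2 did not pass (median 0.57). The largest by the rule for named genes were COL7A1 (2.76, limma adjusted p = 7.11e-38), TNC (2.63, limma adjusted p = 5.92e-65) and the basement membrane collagen COL4A1 (2.34, limma adjusted p = 7.28e-19). COL4A1 passed as lower after histidine depletion (-0.90, limma adjusted p = 0.0362), on few counts and with histidine-depleted libraries that differed from each other. Its scaled counts were 21.9 and 25.9 in untreated and 18.1 and 8.14 in histidine-depleted cells. THBS1 rose after tryptophan depletion too (0.88, limma adjusted p = 3.24e-29).

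All 15 AP-1, ETS and RUNX factors, families whose recognition letters were searched above or that are known regulators of metalloprotease genes, were tested. After histidine depletion 10 rose, 4 fell and 1 did not pass (median 0.55), led by ETS1 from 924 ± 76.8 to 39380 ± 1658 normalized counts (log2 fold change 5.41, limma adjusted p = 6.62e-28), FOSB from 614 ± 34.1 to 5335 ± 112 (3.12, limma adjusted p = 5.07e-23) and FOSL1 from 2117 ± 6.36 to 14670 ± 226 (2.79, limma adjusted p = 1.40e-23). After tryptophan depletion 9 rose, 3 fell and 3 did not pass (median 0.23), with ELF3 (1.13, limma adjusted p = 9.96e-50) and ATF3 (0.98, limma adjusted p = 4.15e-40) higher and ETS2 lower (-0.98, limma adjusted p = 6.13e-42). ETS1 (0.87, limma adjusted p = 1.76e-28), FOSB (0.23, limma adjusted p = 0.00365) and FOSL1 (0.21, limma adjusted p = 0.000154) also rose there. After histidine depletion ATF3 (1.49, limma adjusted p = 3.15e-18) and ELF3 (0.14, limma adjusted p = 0.0182) rose and ETS2 fell (-1.56, limma adjusted p = 1.46e-18). The direct difference between the depletions was 4.52 for ETS1 (limma adjusted p = 7.63e-20) and 2.56 for FOSL1 (limma adjusted p = 6.47e-18). Whether these factors act on the metalloprotease and activator genes was not tested.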

How the data were processed

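RNA from HT29 cells (3 groups of 2) was made into stranded mRNA libraries whose adapters carried molecular identifiers. Per the study's methods and the submitters' processing notes, the authors aligned reads to GRCh38 with STAR 2.7.10a, counted exons of protein-coding genes of gencode 38 with HTSeq 2.0.5, and normalized with DESeq2, although the tables list all gene types. The deposited values are these normalized counts, a signal never below 0, in 1 table per depletion, each with the untreated libraries. How molecular identifiers, strand and multiply mapped reads were treated is not stated there. The methods name full RPMI as control medium for the proteomics, and the control medium of the RNA-seq libraries is not given in the sources used here.

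Whole reads were recovered here from the smallest step between values in each library, and 100% of values came out whole (tolerance 0.01 read). The untreated reads were the same from both tables, and no pair of replicates was identical or within sampling noise (chi-square per degree of freedom 1.94 to 9.74). Coordinates, exon lengths and gene types came from gencode 44, in which 319 identifiers were not found. Tests used the two-sided moderated test of limma 3.58.1 (R 4.3.3) with a mean-variance trend and without robust fitting, on log2(normalized count + 1), with a mean of at least 10 and Benjamini-Hochberg adjustment. The direct comparison of the depletions used reads of all 6 libraries, scaled jointly by the median of ratios. The fitting steps were tested on simulated data with 200 changed genes, far fewer than passed here, so that test does not cover changes as widespread as these. The alternatives were pseudocounts of 0.5 and 8, no filter or a mean of at least 50, no trend, quantile normalization, count tests on the recovered reads (edgeR 4.0.16, DESeq2 1.42.0), a replicate block, protein-coding genes only, a fit on all 6 libraries or on the depleted libraries alone, a log2 fold change of at least 1 and leaving out each library.

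The genes and lists were chosen with earlier results of these data known. Named are all 9 genes and, per list and depletion, up to 3 genes with the largest change past the threshold, where the higher group's mean reached 100 and the groups did not overlap, plus the 3 nearest patterns per gene. Some genes that this rule selects are not reported here. The other depletion's values of these genes, LYZ, MMP3, MMP12, MMP26, the marker genes and the genes at 0 reads are named in addition, and genes beside the metalloproteases on chromosome 11 were chosen by position.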

Additional observations from a re-analysis of the deposited data

How the results depend on the processing

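After histidine depletion the calls of MMP7, PLAU, TIMP1, PLAUR, MMP14 and MMP15 kept their direction and their side of the threshold in all 15 alternatives each, and so did those of PLAUR, MMP14 and MMP15 after tryptophan depletion. Between the depletions, 6 calls held in all 17 alternatives and that of MMP13 was lost without tryptophan-depleted replicate 2. With a log2 fold change of at least 1 also required, the number of the 9 genes called was 3 instead of 6 after histidine depletion, 0 instead of 5 after tryptophan depletion and 4 instead of 7 between the depletions, where 32.5%, 20.5% and 31.7% of all genes were called. DESeq2 called 3 after tryptophan depletion, leaving out PLAU and MMP13. Leaving out each library gave 6 to 7, 3 to 6 and 6 to 8 calls in the 3 comparisons, with 3 after tryptophan depletion without tryptophan-depleted replicate 2, where PLAU and MMP13 were lost. The call added to the 6 after histidine depletion (with no filter and without histidine-depleted replicate 1) and to the 7 between the depletions (with no filter and without either histidine-depleted replicate) was PLAT as lower, which passed the filter without those libraries only because the higher level of the remaining libraries raised its mean. MMP1 passed as lower after tryptophan depletion without the trend (limma adjusted p = 0.0469). Signs of uncalled values turned for MMP1 after histidine depletion (-0.036 with quantile normalization, and -0.14 to 0.36 over the left-out libraries, lowest without histidine-depleted replicate 1), for TIMP1 after tryptophan depletion (-0.018 with quantile normalization) and for PLAT after tryptophan depletion (-0.017 with DESeq2, -0.42 without untreated replicate 2, -0.23 without tryptophan-depleted replicate 2 and up to 0.475 without untreated replicate 1). The cause of these changes was not tested. Libraries that leave a group with 1 sample assume that it varies like the others.

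Libraries with the same replicate number did not deviate together (correlations across 18264 genes 0.042, 0.0020 and -0.041), so the numbers do not pair them. With the replicate block 6, 6 and 7 of the 9 genes were called, the sixth after tryptophan depletion being MMP7 (limma adjusted p = 0.0398). Depth limits MMP1, MMP13 and PLAT, whose libraries hold 2 to 47 reads each.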

Other observations

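MMP7, MMP1 and MMP13 lie in the metalloprotease cluster of chromosome 11. Of the 16 protein-coding genes within 500 kb of the span from MMP7 to MMP13, these included, 10 were tested after histidine depletion and 7 were higher and 1 lower, where 39.1% of all genes tested were higher and 38.2% lower. After tryptophan depletion 3 were higher and 2 lower, where 36.1% and 34.8% of all genes were. Nothing particular to this region is read from these counts. The gene with the largest change was BIRC3, an inhibitor of apoptosis, whose scaled counts were 316 and 377 in untreated, 9841 and 9513 in histidine-depleted and 402 and 385 in tryptophan-depleted cells (log2 fold change 4.81 ± 0.0683 (SE) after histidine depletion by limma). The neighbours BIRC2 (0.79), YAP1 (0.76), CFAP300 (0.75), TMEM123 (0.65) and DCUN1D5 (0.41) were also higher after histidine depletion, and DYNC2H1 was lower (-1.41). The remaining 6 genes, MMP20, MMP27, MMP8, MMP10, MMP3 and MMP12, had at most 10 reads in any library. These neighbours were chosen by position and are given as values.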
